A study of Mus musculus with 12 samples.

Results

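The proteins of the mitochondrial ribosome are encoded by nuclear genes named Mrpl (large subunit) and Mrps (small subunit), and their transcripts were followed here in tumours of the mouse pancreatic cancer line CR705. Members were the protein-coding genes whose symbol is Mrpl or Mrps followed by a number. GENCODE release M21 annotates 78 such genes, 49 Mrpl and 29 Mrps, and 77 of them were found by identifier in the count table of 43432 genes. The annotated identifier of Mrpl33 was not among the identifiers of the table, so this gene was not analysed here. Of the 77 members, 76 had enough counts to be tested. The exception was Mrpl53, at 0 counts in all 12 libraries, whose annotated exons are covered to 88.0% by exons of another protein-coding gene on the same strand, Gm42688.

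RNA of tumours was sequenced as bulk mRNA in 12 libraries: 6 came from CR705 cells labelled knockout for the aryl hydrocarbon receptor (AHRKO) and 6 from CR705 cells labelled wild type (WT). The receptor, encoded by Ahr, is a transcription factor activated by small-molecule ligands. The samples are taken as tumours from the extraction protocol, which names tumours of WT or knockout cells. The growth and treatment texts of the same samples instead describe CR705 cells in culture plates given unnamed test compounds, so whether any compound applies to these libraries is not settled by the labels. No title or sample characteristic names a compound, and the host strain, its age and whether the knockout is a single clone are not given in them. The labels do not tie replicates to separate animals, and every p therefore covers no more than the spread between these tumour samples, which may in part be technical.

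Mitochondrial ribosomes make the small set of proteins encoded by mitochondrial DNA, which are subunits of the respiratory chain and ATP synthase. Their ribosomal RNAs come from the mitochondrial genome, while every protein is made in the cytosol and imported, and both genomes must be expressed to build a ribosome. Many of the proteins have a bacterial counterpart, and the others are particular to mitochondria. Some symbols mislead: Mrps18a and Mrps30 proteins sit in the large subunit of the solved mammalian structure, and Mrps36 is now known as a component of the oxoglutarate dehydrogenase complex.

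Library totals ran from 14772343 to 19944273 counts in AHRKO and from 19293174 to 35881469 in WT. Ahr had 62.5 CPM (counts per 1000000 of the scaled library total) in the lowest AHRKO library, a median of 104 and a highest value of 143, against 101, 111 and 125 in WT (log2 fold change -0.13 ± 0.17 SE; adjusted p = 0.606, edgeR), so its transcript level does not check the genotype labels. AHRKO replicate 1 stood apart in cell type markers. Its mean log2 CPM was 7.60 over 14 pan-leukocyte markers, while the remaining 5 AHRKO libraries lay at 5.04 to 6.07 and WT at 4.09 to 5.02. All 14 of these markers rose. Over 12 epithelial and ductal markers it was 3.89, while the remaining AHRKO libraries lay at 5.99 to 6.81 and WT at 5.90 to 7.47, and 0 of the 12 passed the test. It was also the highest of all libraries in fibroblast markers, at 10.16, and in endothelial markers, at 7.62, while the remaining AHRKO libraries lay at 7.83 to 8.81 and 5.18 to 5.77. AHRKO replicate 2 was the highest in muscle markers, at 5.51, where all other libraries lay at 2.15 to 3.34. Only 2 of the 7 muscle markers passed the filter and entered this mean. In bulk tumours, fewer cells of a type and less RNA per cell cannot be told apart. The 37 mitochondrially encoded genes, both ribosomal RNA genes mt-Rnr1 and mt-Rnr2 included, were at 0 counts in all libraries, so the RNA of the ribosome was not measured.

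The regulatory stretch in front of members that changed is shown first. RefSeq promoter windows on GRCm38.p6, the sequence that mm10 uses, matched 68 of the 77 members by symbol, and each window held 250 bases before and 50 after the start. Of each window only the bases next to the start that carry no annotated exon are printed, 5′ to 3′ on the gene's strand, with motif matches in capitals. Mrpl43 is shown for the largest fold change, Mrpl52 for the highest level per length, Mrpl34 for the largest fall, and Mrpl2 as a called gene with an E-box, chosen after its match was seen. The stretches are chr19:45006443-45006557 (minus strand) for Mrpl43, chr14:54426659-54426908 (plus strand) for Mrpl52, chr8:71464676-71464925 (plus strand) for Mrpl34 and chr17:46646023-46646220 (plus strand) for Mrpl2.
Mrpl43: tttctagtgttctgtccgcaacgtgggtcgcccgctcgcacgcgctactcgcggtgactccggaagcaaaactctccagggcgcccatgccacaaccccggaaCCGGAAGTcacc
Mrpl52: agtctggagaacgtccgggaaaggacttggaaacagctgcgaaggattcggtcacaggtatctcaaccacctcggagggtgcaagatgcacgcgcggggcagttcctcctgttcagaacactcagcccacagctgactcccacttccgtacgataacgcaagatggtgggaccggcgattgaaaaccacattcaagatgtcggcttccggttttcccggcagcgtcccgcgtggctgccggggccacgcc
Mrpl34: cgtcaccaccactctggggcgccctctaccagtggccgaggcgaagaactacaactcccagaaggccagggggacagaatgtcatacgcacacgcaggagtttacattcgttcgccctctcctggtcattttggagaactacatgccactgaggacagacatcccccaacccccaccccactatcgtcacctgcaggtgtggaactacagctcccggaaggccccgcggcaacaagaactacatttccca
Mrpl2: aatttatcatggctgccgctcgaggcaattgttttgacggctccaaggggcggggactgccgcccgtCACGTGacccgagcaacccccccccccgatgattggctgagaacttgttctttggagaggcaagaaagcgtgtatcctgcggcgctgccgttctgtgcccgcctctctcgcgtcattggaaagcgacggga

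The capitals mark an ETS motif that ends 4 bases before the start of Mrpl43 and an E-box 125 bases before that of Mrpl2. ETS motifs are the sites of factors such as GABP, the product of Gabpa and Gabpb1, and E-boxes those of MYC and related factors. NRF1 and YY1 are further factors known for promoters of mitochondrial genes. The motifs were searched on both strands of the whole windows as exact letters: CCGGAAGT for ETS, GCGCATGC for NRF1, AAGATGGC for YY1 and CACGTG for the E-box, none of which contains another. The ETS letters stood in 11 of 68 members (16.2%), against 4.31% of 27025 genes with a window. The YY1 letters stood in 12 of 68 (17.6%), against 3.19% of all genes, and the NRF1 letters in 7 of 68 (10.3%), against 3.05%. These letters are cores chosen after forms 10 letters long had been searched, which stood in 5 members (7.35%, against 0.995% of all genes) for YY1 and 3 members (4.41%, against 1.07%) for NRF1. The E-box stood in 5 of 68 (7.35%), against 8.09%. Among the 17 members with a window that were higher in AHRKO, 4 had the ETS letters, 3 the E-box, 2 the YY1 letters and 1 the NRF1 letters. Among the 47 that were tested and not called, 7 had the ETS letters, 2 the E-box, 9 the YY1 letters and 6 the NRF1 letters. These are matches of letters and not measured binding sites. The background was every gene with a window, whether or not it was tested here, and was not matched for base content. Whether members differ from other expressed genes in these letters was not tested.

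More member genes were higher than lower in AHRKO tumours, by small amounts. Of 76 tested members, 23 rose and 3 fell at an adjusted p under 0.05 (quasi-likelihood test of edgeR, adjusted by Benjamini-Hochberg over all 15449 tested genes). Among all tested genes, 15.9% rose and 13.6% fell, 29.5% in all, against 30.3% and 3.95% of the members, 34.2% in all. The share of members called was thus near that of all genes, and the split between directions was not. The median log2 fold change of the members was 0.21, beside 0.02 for all tested genes, and their quartiles were -0.02 and 0.39. The changes were small: 68 of 76 members (89.5%) lay within 0.5 of 0 on the log2 scale, as did 68.7% of all genes. The largest rise was 1.89-fold. All 6 AHRKO libraries lay above the WT median for 22 of the 23 rises and below it for the 3 falls.

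**Figure D1:**
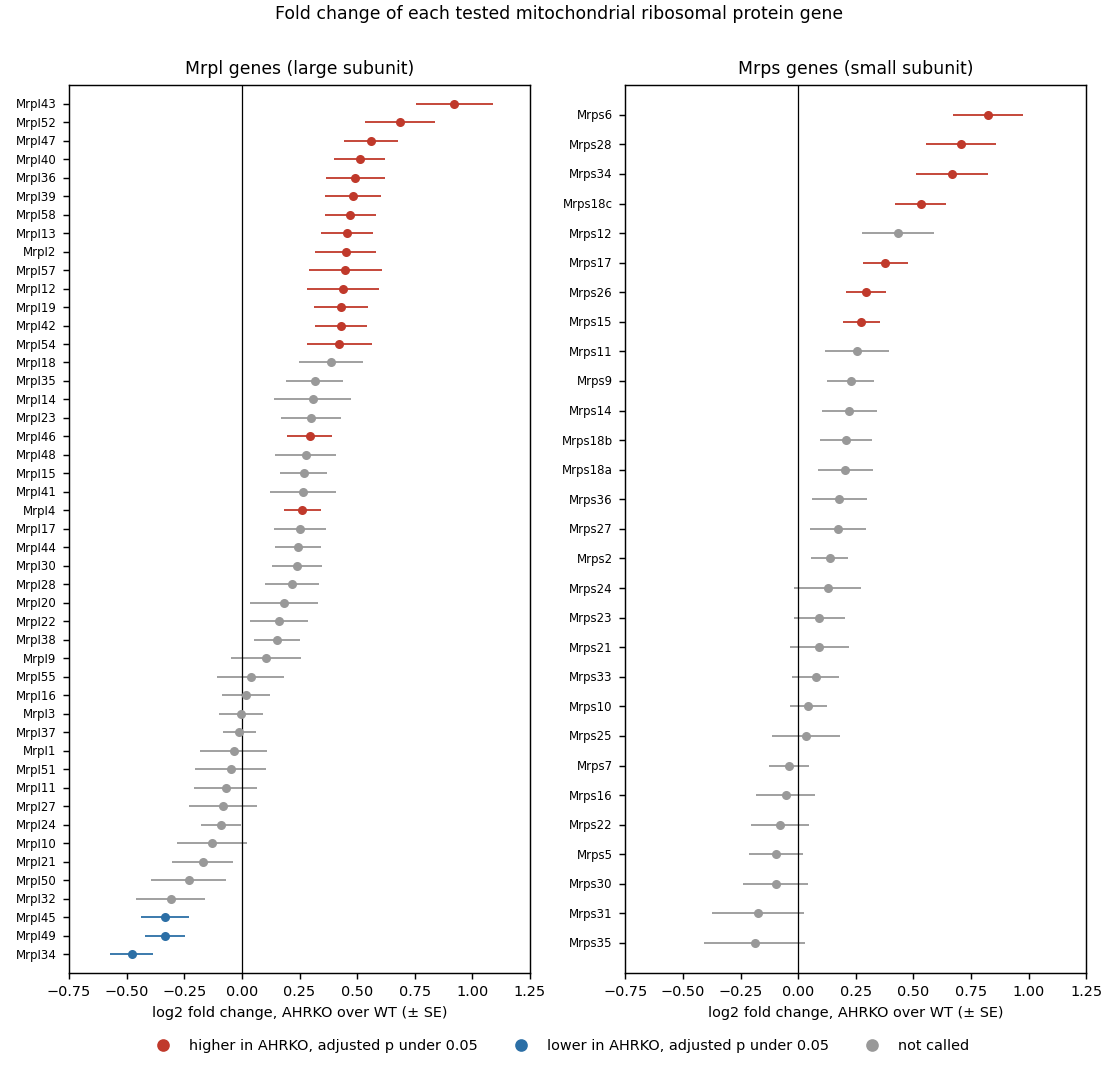
Log2 fold change (AHRKO over WT) with its standard error for each of the 47 tested Mrpl genes (left) and 29 tested Mrps genes (right), sorted by size, with called genes coloured. Most points lie right of 0 in both panels, Mrpl43 and Mrps6 lie farthest right, and the 3 falls are all Mrpl genes.

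The AHRKO libraries differed from each other more than the WT libraries did. Summed over all members, expression was 1976 CPM in the lowest AHRKO library, 2265 at the median and 2856 in the highest, against 1964, 2070 and 2172 CPM in WT, so the groups overlapped. AHRKO replicate 4 had the highest value of its group in 58 of 76 tested members, and AHRKO replicates 6 and 1 the lowest in 35 and 27. The same AHRKO replicate 4 had 74535 summed CPM over the 84 cytosolic ribosomal protein genes and 10389 over the 85 respiratory chain genes, the highest of all libraries in both. The SD of log2 CPM was larger in AHRKO than in WT for 73 of 76 members, and its median was 0.26 in AHRKO and 0.12 in WT. Over all tested genes these medians were 0.35 and 0.20, and 84.6% of genes had the larger SD in AHRKO. Without AHRKO replicate 4 the median log2 fold change of the members was 0.13, while 19 rose and 3 fell (25% and 3.95%, beside 13.6% and 12% of all genes). Without both AHRKO replicates 1 and 4, a choice made after the data were seen, 19 rose and 3 fell and the median was 0.16. Of all genes, 16.6% rose and 15.3% fell in that run.

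**Figure D2:**
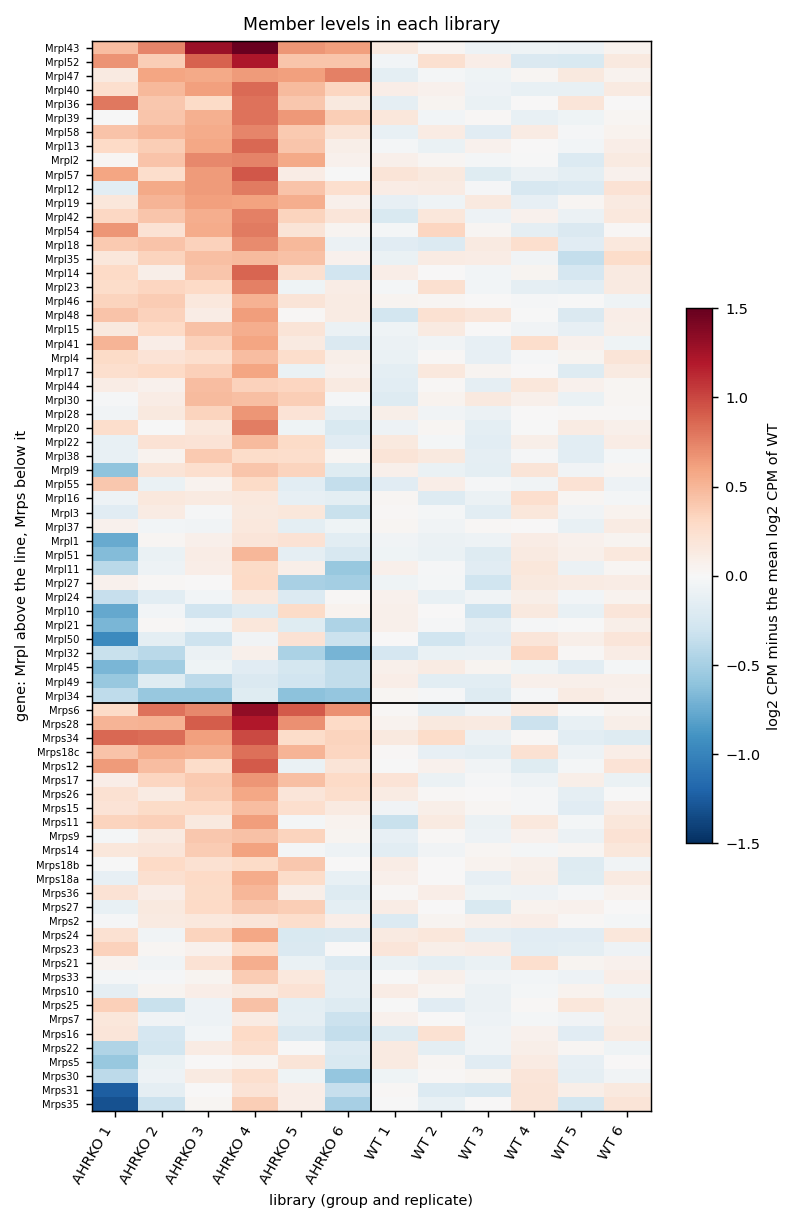
Log2 CPM of each tested member in each library minus its mean log2 CPM in WT, with AHRKO libraries left of the vertical line and Mrpl genes above the horizontal one. The column of AHRKO replicate 4 is the reddest, and AHRKO replicate 1 holds the deepest blue cells, at Mrps31 and Mrps35.

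Both subunits had more rises than falls and higher mean sums in AHRKO. Mrpl genes summed to 1320 CPM in the lowest AHRKO library, 1515 at the median and 1909 in the highest, against 1295, 1369 and 1444 CPM in WT. Mrps genes summed to 656 CPM in the lowest AHRKO library, 750 at the median and 948 in the highest, against 661, 701 and 728 CPM in WT. AHRKO replicate 4 was the highest library in both sums, and the groups overlapped in both. The mean of the Mrpl sums was 1.13 times that of WT and the mean of the Mrps sums 1.099 times. Without AHRKO replicate 4 these ratios were 1.08 and 1.05. The ratio of the Mrpl to the Mrps sum was 2.01 ± 0.04 in AHRKO and 1.96 ± 0.02 in WT (mean ± SD, n = 6 each), with single AHRKO libraries from 1.96 to 2.05 and WT libraries from 1.94 to 1.99. The balance of the subunits in transcripts therefore differed by 0.05 between group means, and the groups overlapped.

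Of 47 tested Mrpl genes, 16 rose (34%) and 3 fell (6.38%), beside 15.9% and 13.6% of all tested genes. Their median log2 fold change was 0.25. Of 29 tested Mrps genes, 7 rose (24.1%) and 0 fell, with a median of 0.17. Whether the subunits differ in these counts was not tested. Placing Mrps18a and Mrps30 in the large subunit and leaving out Mrps36 was an alternative added after the data were seen. It gave 16 rises (32.7%) and 3 falls (6.12%) among 49 genes of the large subunit. Among 26 of the small one it gave 7 rises (26.9%) and 0 falls. Divided by origin, 12 of 47 tested members with a bacterial counterpart rose (25.5%) and 1 fell (2.13%), with a median of 0.22. Of 29 particular to mitochondria, 11 rose (37.9%) and 2 fell (6.9%), with a median of 0.18. Within those particular to mitochondria, the Mrpl genes had 9 rises and 2 falls among 18, with a median of 0.29, and the Mrps genes 2 rises among 11, with a median of 0.08. Within those with a bacterial counterpart, the Mrpl genes had 7 rises and 1 fall among 29, with a median of 0.22. The Mrps genes there had 5 rises and 0 falls among 18, with a median of 0.21. The split by origin kept Mrps18a, Mrps30 and Mrps36 among the Mrps genes, as their symbols have it. Differences in this split were not tested.

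**Figure D3:**
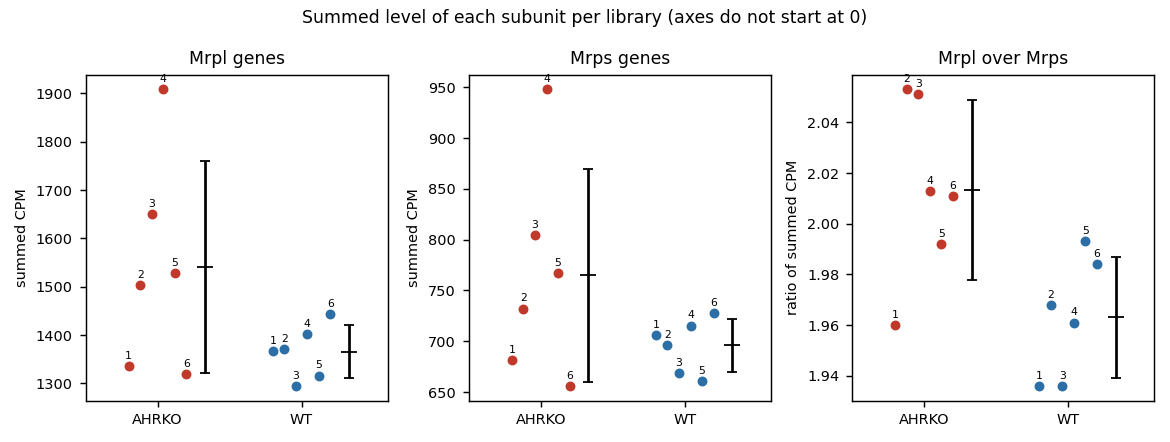
Summed CPM of Mrpl genes (left) and Mrps genes (middle) and the ratio of these sums (right) in each library, with replicate numbers beside the points and the mean ± SD as bars (n = 6 per group). AHRKO replicate 4 is the highest in both sums, and the ratio overlaps between the groups.

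Levels between genes were compared per kilobase of annotated exon, as the mean over all 12 libraries. Mrpl52 was highest at 93.0 CPM per kilobase, followed by Mrps21 at 58.7 and Mrpl34 at 52.5. Mrps25 was lowest at 2.38, then Mrpl32 at 3.67 and Mrpl19 at 3.94. The same genes stood at both ends when the length of the principal transcript was used. The median level was 18.8 CPM per kilobase over the tested Mrpl genes and 14.3 over the Mrps genes, a gap smaller than the quartile range within either subunit, from 10.3 to 32.8 and from 9.80 to 20.1. Of the lowest genes, 69.8% of the annotated exon bases of Mrps25 are shared with Nr2c2 on the opposite strand, and 1962 exon bases of Mrpl19 with Gcfc2, also opposite, while Mrpl32 overlaps no other gene's exons. Whether counting used the strand is not given in the sources used here, and the part of such overlaps in the levels was not tested.

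Mrpl43, a protein of the large subunit particular to mitochondria, had the largest fold change and the smallest p of all members. It had 48.1 CPM in the lowest AHRKO library, 56.7 at the median and 97.9 in the highest, against 33.1, 34.6 and 38.8 CPM in WT. Every AHRKO library was above every WT library, with AHRKO replicates 3 and 4, at 85.8 and 97.9, well above the other 4. Its log2 fold change was 0.92 ± 0.17 (SE; adjusted p = 0.00218, edgeR's quasi-likelihood test), and 0.78 without AHRKO replicate 4. Mrpl43 (ENSMUSG00000025208, mm10 chromosome 19, 45004829 to 45006442, minus strand) shares 33.4% of its exon bases with Twnk, which encodes the helicase of mitochondrial DNA replication and runs in the opposite direction. Twnk had 56.6 ± 18.3 CPM in AHRKO and 44.2 ± 4.47 CPM in WT (mean ± SD, n = 6 each), a log2 fold change of 0.36 that did not pass (adjusted p = 0.228). Without AHRKO replicate 1, Twnk passed (adjusted p = 0.00215, edgeR).

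Mrps6, which has a bacterial counterpart in the platform of the small subunit, rose next most. It had 10.9 CPM in the lowest AHRKO library, 15.3 at the median and 22.6 in the highest, against 8.17, 9.01 and 9.88 CPM in WT, with no overlap. Its log2 fold change was 0.82 ± 0.15 (SE; adjusted p = 0.00259, edgeR). Mrps6 (chromosome 16, 92058270 to 92112227, plus strand) shares 19.9% of its exon bases with the protein-coding Gm49711 and 10.4% with Slc5a3, a myo-inositol transporter gene, both on the same strand. Slc5a3 was at 0.09 on the log2 scale (adjusted p = 0.767, edgeR).

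Mrps28, counterpart of the bacterial protein S1, had 19.3, 23.9 and 36.01 CPM as its lowest, median and highest AHRKO values, against 12.6, 16.5 and 17.4 CPM in WT. The groups did not overlap, and the log2 fold change was 0.71 ± 0.15 (SE; adjusted p = 0.00523, edgeR). Mrps34, a small subunit protein particular to mitochondria, had 8.365, 11.4 and 13.7 CPM, against 6.04, 6.72 and 8.367 CPM in WT, where the lowest AHRKO library lay just under the highest WT library. It rose by 0.67 on the log2 scale (adjusted p = 0.00796, edgeR). Its exons overlap those of Mapk8ip3, on the opposite strand, over 63.4% of their length, and of Nme3, on the same strand, over 37.0%. Mapk8ip3 had 171 ± 24.9 CPM in AHRKO and 188 ± 25.2 CPM in WT (mean ± SD, n = 6 each), a log2 fold change of -0.14. The part of these overlaps in the counts of Mrps34 was not tested.

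The Mrps18 trio descends from a single bacterial protein, and its members take different places in the ribosome. Mrps18c had 16.3 CPM in the lowest AHRKO library, 18.7 at the median and 23.0 in the highest, against 11.8, 12.8 and 15.2 CPM in WT. The groups did not overlap, and it rose 1.44-fold, 0.53 ± 0.11 on the log2 scale (SE; adjusted p = 0.00454, edgeR). Mrps18c shares 23.2% of its exon bases with Gm43511 on the same strand. Mrps18a and Mrps18b did not pass, at 0.20 ± 0.12 (adjusted p = 0.213) and 0.21 ± 0.11 (SE; adjusted p = 0.181, edgeR). The difference between Mrps18c and the others was not tested. Per kilobase, Mrps18a was the highest of the trio at 34.1 CPM, against 17.0 for Mrps18c and 10.4 for Mrps18b.

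The other 7 of the 12 rises with the smallest p were all Mrpl genes. Mrpl52 was at 0.68 on the log2 scale, Mrpl47 at 0.56, Mrpl40 at 0.51, Mrpl36 at 0.49, Mrpl39 at 0.48, Mrpl58 at 0.47 and Mrpl13 at 0.46. In this group Mrpl58 encodes a peptidyl-tRNA hydrolase that frees stalled ribosomes, Mrpl47 the counterpart of bacterial L29, and Mrpl36 and Mrpl13 counterparts of bacterial proteins of the same number. Their adjusted p ran from 0.00452 for Mrpl47 to 0.0128 for Mrpl36 (edgeR), and all 6 AHRKO libraries lay above the WT median for each. The groups did not overlap for Mrpl52, Mrpl40 and Mrpl58. Mrpl52 had 45.0, 50.9 and 80.4 CPM as its lowest, median and highest AHRKO values, against 29.6, 35.6 and 40.9 CPM in WT. In all, 10 rises and 1 fall had groups that did not overlap, 14.5% of the tested members, beside 13.4% of all tested genes (6.03% higher and 7.35% lower).

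The falls were Mrpl34, Mrpl49 and Mrpl45. Mrpl34, counterpart of a small bacterial protein, had 24.1 CPM in the lowest AHRKO library, 24.96 at the median and 32.5 in the highest, against 32.4, 37.3 and 40.4 CPM in WT. Only AHRKO replicate 4 reached the lowest WT library, and the log2 fold change was -0.48 ± 0.09 (SE; adjusted p = 0.0033, edgeR). Mrpl49 had 24.1, 28.6 and 31.7 CPM, against 32.1, 37.7 and 38.4 CPM in WT, with no overlap and a log2 fold change of -0.33 ± 0.09 (SE; adjusted p = 0.0146, edgeR). Mrpl45, which ties the ribosome to the inner membrane, had 30.8, 39.96 and 47.3 CPM, against 44.6, 49.9 and 53.9 CPM in WT, and the groups overlapped. It was at -0.33 ± 0.10 (SE; adjusted p = 0.03, edgeR), and its call was lost in 6 of 12 runs that left out 1 library each, with adjusted p up to 0.0647 among them.

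**Figure D4:**
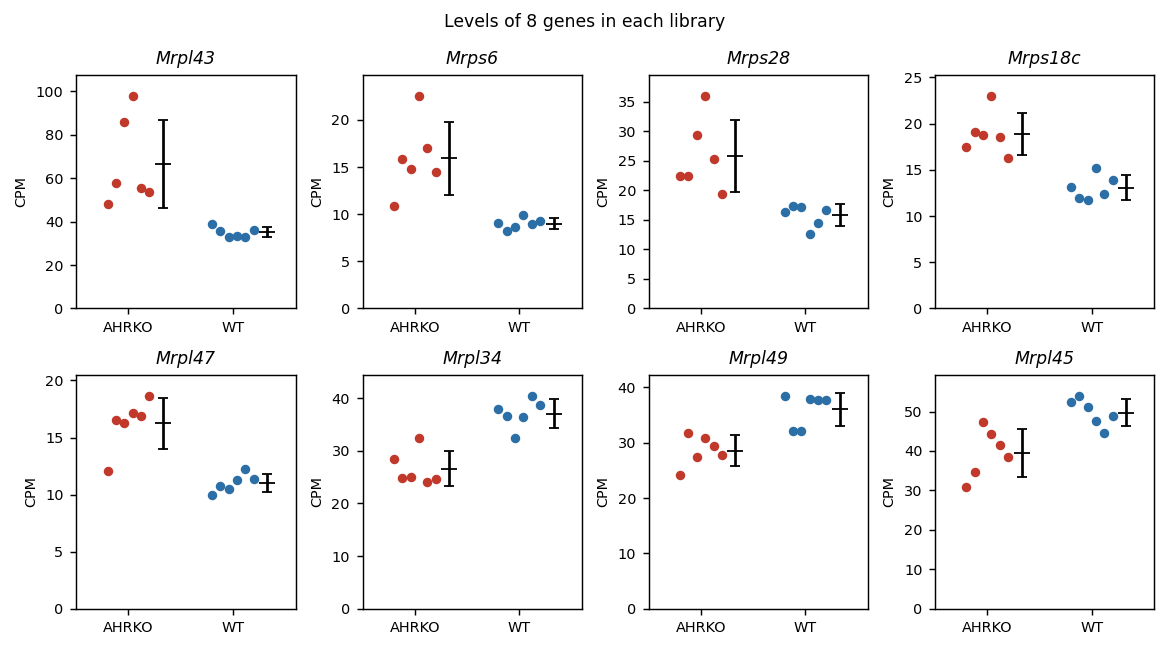
CPM of 8 members in each library (AHRKO left, WT right), each axis starting at 0, with the mean ± SD as bars (n = 6 per group). Mrpl43, Mrps6, Mrps28, Mrps18c and Mrpl49 have groups that do not overlap.

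Members that did not pass included genes at the heart of the ribosome. Mrps12, part of the decoding centre, was at 0.43 ± 0.16 on the log2 scale (SE; adjusted p = 0.0536, edgeR) and Mrpl3, near the peptidyl transferase centre, at -0.0042 ± 0.0956. These and the other members named in this paragraph were chosen after their values were seen. Just inside the threshold lay Mrpl12, a stalk protein, at 0.44 (adjusted p = 0.0486, edgeR), and its call was kept in only 1 of 12 runs that left out a library. Mrps31 and Mrps35, both of the small subunit, were low in AHRKO replicate 1, at 11.6 and 24.4 CPM. The other AHRKO libraries had 21.5 to 31.6 CPM of Mrps31 and 42.6 to 77.8 CPM of Mrps35, and WT libraries 23.1 to 31.3 and 49.7 to 69.1 CPM. That library was also the lowest of all in the epithelial markers above and the highest in the leukocyte markers, and the part of these cell types in the values was not tested.

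Chromosomes differed in the fold changes of their genes. All 3 tested members of chromosome 16, Mrps6, Mrpl40 and Mrpl39, rose, with a median log2 fold change of 0.51, and 37.5% of the 472 other tested genes of that chromosome rose, with a median of 0.32. Of the 2 members of chromosome 8, Mrpl34 fell and Mrps31 was at -0.17, while 39.9% of the 824 other genes there fell, with a median of -0.31. On chromosome 7, 1 of 6 members rose, Mrpl46, which kept its call in 4 of 12 runs that left out 1 library, with a member median of 0.29 beside 0.20 for the other genes. On chromosome 11, with 11 members the most of any, 2 rose and 1 fell, with a median of 0.09 beside -0.07. Outside chromosomes 7, 8, 12, 15 and 16, 18 of 64 members rose and 2 fell, a set of chromosomes chosen with earlier results of these data known. The chromosomes kept also differed. The share of other tested genes that rose ran from 7.62% on chromosome 9 to 25.5% on chromosome 5, beside 15.9% of all tested genes. On chromosome 5, 2 of 3 members rose, and on chromosome 9, 1 of 3. The share of all genes outside the left-out chromosomes was not computed. Chromosome copy number was not measured in these data, and its part was not tested.

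**Figure D5:**
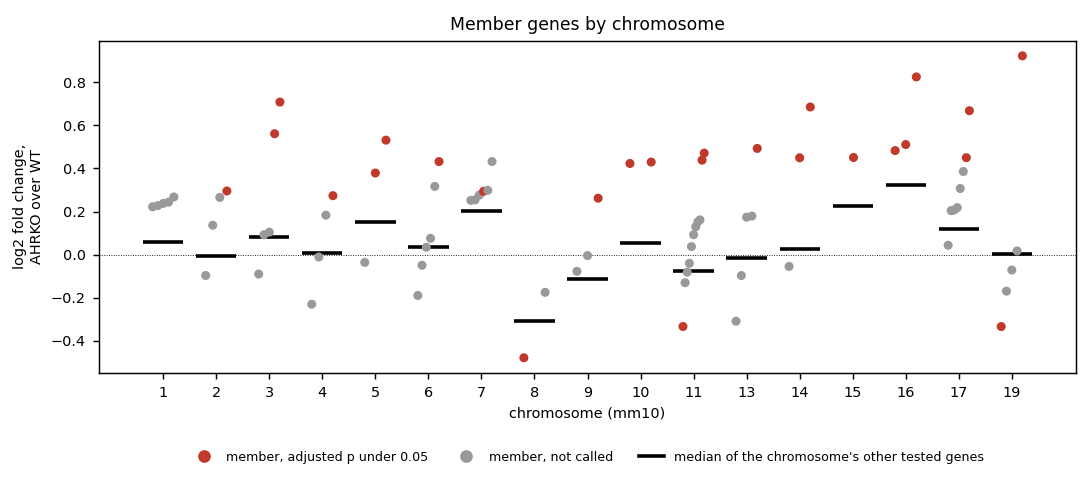
Log2 fold change (AHRKO over WT) of each tested member by mm10 chromosome, with the median of the chromosome's other tested genes as a bar and called members in red. The 3 members of chromosome 16 lie above its raised bar at 0.32, and both members of chromosome 8 lie below 0, where the bar is at -0.31.

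Ribosomal proteins with other symbols were tested apart. Of 5 such genes (Dap3, Ptcd3, Chchd1, Aurkaip1 and Gadd45gip1), 0 passed by edgeR at an adjusted p under 0.05, with a median log2 fold change of -0.07. Among all tested genes, 15.9% rose and 13.6% fell. Gadd45gip1, a large subunit protein whose gene lies on chromosome 8, was at -0.30 (adjusted p = 0.0924, edgeR; 0.0369 with DESeq2) and Aurkaip1, of the small subunit, at 0.26 (adjusted p = 0.101, edgeR).

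The other steps of mitochondrial gene expression were counted apart. Among all tested genes, 15.9% rose and 13.6% fell. Of 26 factors that assemble the ribosome or mature its RNA, 3 rose (11.5%) and 0 fell, with a median of 0.04. They were Rcc1l at 0.43, Malsu1, which keeps immature large subunits from joining, at 0.45, and Rbfa, which acts on the small subunit's RNA, at 0.46 (adjusted p of 0.021, 0.0247 and 0.0273, edgeR). The call of Rbfa was lost without AHRKO replicate 4 (adjusted p = 0.0561) and without WT replicates 2, 4, 5 or 6, each left out alone (adjusted p up to 0.0614, edgeR). Of 15 tested translation factors and mRNA binding proteins 2 rose (13.3%) and 3 fell (20%), with a median of 0.06. Oxa1l, the insertase that places new proteins in the inner membrane, rose by 0.37 and the elongation factor gene Tsfm by 0.34 (adjusted p of 0.0227 and 0.0349, edgeR). The call of Tsfm was lost in 6 of 12 runs that left out 1 library and those of Oxa1l and Malsu1 in 2 each, with adjusted p up to 0.0784, 0.0556 and 0.0535. Gfm2, which recycles ribosomes, fell by 0.36 with no overlap of the groups (adjusted p = 0.00672, edgeR), and Mtfmt, which formylates the initiator tRNA, fell by 0.34 (adjusted p = 0.0208; 0.0503 without WT replicate 5, edgeR).

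Of 20 mitochondrial aminoacyl-tRNA synthetase and amidotransferase genes, 4 rose (20%, beside 15.9% of all tested genes) and 0 fell, with a median of 0.11. Qrsl1 and Gatc, subunits of the amidotransferase that makes glutaminyl-tRNA, rose by 0.69 and 0.44 without overlap of the groups (adjusted p of 0.00223 and 0.0097, edgeR). Yars2, on chromosome 16, rose by 0.54 and Aars2 by 0.43. Of 10 genes of mitochondrial DNA replication and transcription 0 rose and 1 fell (10%, beside 13.6% of all tested genes). The fall was Tefm, an elongation factor, at -0.33 (adjusted p = 0.0306, edgeR). Its call was lost in 7 of 12 runs that left out 1 library, with adjusted p up to 0.0657. Tfam, which packages the DNA, was at 0.17 (adjusted p = 0.232, edgeR). Of 9 transcriptional regulators of such genes, 2 rose (22.2%) and 1 fell (11.1%), beside 15.9% and 13.6% of all tested genes. Gabpa, on chromosome 16, rose by 0.33 (adjusted p = 0.024, and 0.0631 with no filter, edgeR). Yy1, on chromosome 12, fell by 0.33 without overlap (adjusted p = 0.00693, edgeR). Ppargc1b rose by 0.67 (adjusted p = 0.0366, edgeR), a call lost with no filter (0.0828) and in 8 of 12 runs that left out 1 library (up to 0.0822). Pprc1 was at 0.35 (adjusted p = 0.052, edgeR; 0.00328 without AHRKO replicate 1).

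Genes of other large protein assemblies also had more rises than falls. Of 82 tested cytosolic ribosomal protein genes 22 rose and 0 fell, with a median log2 fold change of 0.35, and of 81 tested respiratory chain genes 25 rose and 1 fell, with a median of 0.27. Their shares of rises, 26.8% and 30.9%, stand beside 30.3% for the mitochondrial ribosomal proteins and 15.9% of all tested genes. Rpl35a, a cytosolic ribosomal protein gene, had 343 ± 107 CPM in AHRKO and 191 ± 16.1 CPM in WT, and Atp5j, a subunit gene of ATP synthase, 74.9 ± 12.5 and 51.2 ± 2.59 CPM (mean ± SD, n = 6 each), and both lie on chromosome 16. Summed over cytosolic ribosomal proteins, AHRKO libraries ran from 36719 to 74535 CPM and WT libraries from 35696 to 44361. Of 12 proliferation genes 3 rose (25%) and 0 fell, with a median of 0.26. Whether the mitochondrial ribosomal proteins differ from these groups was not tested.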

How the data were processed

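Poly-A selected RNA was sequenced in 12 libraries on an Illumina instrument, per the labels' protocols, whose extraction text names tumours and whose growth text describes cultured cells. Per the submitters' processing notes, HISAT2, SAMtools, HTSeq and DESeq2 were used with mm10. Which annotation and strand setting HTSeq used, and all versions, are not stated in these notes. Values in the table that the authors deposited are raw counts per Ensembl gene, with a column for each library. Symbols, coordinates and exon lengths (basic transcript set) came from GENCODE M21 by identifier, which matched 42548 of 43432 genes, and exon overlaps from all its transcripts. No 2 libraries of a group agreed within sampling noise (lowest chi-squared per degree of freedom 13.7).

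Genes were kept by filterByExpr, scaled by TMM and tested with edgeR 4.0.16 (R 4.3.3; quasi-likelihood, two-sided, Benjamini-Hochberg over 15449 genes, threshold 0.05). The standard error was the fold change over the root of its F value. CPM use TMM-scaled totals, and log2 CPM a prior count of 2. Alternatives used DESeq2 1.42.0, limma 3.58.1 (voom with quality weights), RLE and upper quartile scaling, no filter or a stricter one, a block for the replicate number, and each library left out in turn. The script was tested on simulated data, where edgeR recovered 87% of 4-fold and 57% of 2-fold changes, with 6 false calls among 150. Only 200 of 15449 genes were changed there, while 29.5% were called in these data. These shares are therefore not the sensitivity for the members. The largest member rise was 1.89-fold, and members that were not called are not shown to be unchanged. Totals per library ran from 14772343 to 35881469 counts, and errors given are from the spread between libraries.

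Members and gene lists were chosen with earlier results of these data known. Named members were up to 12 per direction by smallest p, the Mrps18 trio, the 3 highest and 3 lowest per kilobase, those that failed the filter and up to 5 without overlap; from other lists, 4 by smallest p or 2 where none was called. Named genes outside it are said to be so, or are exon neighbours or members of the lists counted.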

Additional observations from a re-analysis of the deposited data

Results flagged for a closer look

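Levels of the named members and of the subunit sums were searched for a library far from the rest of its group, in 52 groups of 6 values, with a limit that chance passes in about 1 in 20 groups. The search found 1 value. Mrpl47 was at 12.04 CPM in AHRKO replicate 1, while the next AHRKO library had 16.3 CPM, a gap of 0.643 of the group's range. That library was the lowest in epithelial markers and the highest in leukocyte markers. Without it the log2 fold change of Mrpl47 was 0.64 in place of 0.56, and the gene was called both ways.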

How the results depend on the processing

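No member changed direction among the called ones under any alternative tried. The members that rose were 28 with DESeq2 (36.8%, beside 19.5% of all genes), 20 with limma-voom (26.3%, beside 19.9%), 24 with RLE (31.6%, beside 16.2%), 20 with upper quartile scaling (26.3%, beside 14.8%), 16 with no filter (21.1%, beside 7.43%) and 23 with the stricter one (30.3%, beside 17.2%). The count that fell lay between 2 and 4. Leaving out each library in turn gave 16 to 26 rises, the fewest without WT replicate 5, and 2 or 3 falls. The rises were 21.1% to 34.2% of the members, while 11.7% to 19.1% of all genes rose in these runs. Of the 26 called members, 17 were called in all 12 of these runs and 11 under all 20 alternatives. Of 45 members whose exons overlap no other gene, a choice added after the data were seen, 11 rose and 2 fell (24.4% rose), while of the 31 with such an overlap 12 rose and 1 fell (38.7% rose), a difference that was not tested.

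With the replicate block 10 members rose and 1 fell: 6 Mrpl genes rose and 1 fell, and 4 Mrps genes rose. Over all genes the block left 1114 rises (7.21%) and 1240 falls (8.03%), beside 13.2% and 1.32% of the members. Deviations of same-numbered libraries correlated at -0.47 to 0.03, and 0 of 6 AHRKO libraries correlated best with its own number. Pairing by number was thus not seen, but differences in cell types can hide a small shared batch, which was not tested. The block also costs degrees of freedom. The TMM median of all genes was 0.02, and no other scaling moved it by as much as 0.1. Each scaling assumes that most genes do not change, so an all-gene median near 0 is no check of it. The members' median was 0.21 with TMM, 0.22 with RLE and 0.20 with upper quartile scaling. Leaving out AHRKO replicate 4 brought the median of Mrpl genes to 0.19 and of Mrps genes to 0.13.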

Other observations

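Processed pseudogenes named after members held few reads. Of the 5 in the table, Mrpl48-ps had 198 counts over all 12 libraries, Mrpl23-ps1 67, Mrps36-ps2 13, Mrps36-ps1 7 and Mrps36-ps3 0, and reads of a gene and its near-identical copy cannot be told apart in such counts. Mrpl46 and Mrps11, from different subunits, start head to head on chromosome 7 and share 173 exon bases on opposite strands. They had log2 fold changes of 0.29 (adjusted p = 0.0408) and 0.25 (adjusted p = 0.185, edgeR). Mrpl36 and Ndufs6, a subunit gene of respiratory complex I, overlap by 30 exon bases on opposite strands and were at 0.49 and 0.61. Mrpl47 overlaps both Ndufb5, another complex I gene, at 0.49, and Actl6a, a chromatin remodelling gene, at 0.43. All of these genes except Mrps11 passed the test, and what shared reads add to their values was not tested.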
